A study of Mus musculus with 8 samples.

Results

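The voltage-gated sodium channel alpha subunits of mouse brain are the 6 genes *Scn1a*, *Scn2a1*, *Scn3a*, *Scn8a*, *Scn9a* and *Scn7a*, which were taken by name from a table of 24015 gene entries. All 6 were found, and all 6 were among the 15588 genes that passed the filter of at least 1 CPM (counts relative to TMM-scaled library size) in at least 1 library. The table covers 8 libraries of messenger RNA, each from 1 mouse at postnatal day 7 (P7). WT animals had 0 deleted alleles (n = 2, 2 males). Mice labelled HT carried 1 deleted allele and are called 1b+/- (n = 4, with males as replicates 1 and 2 and females as replicates 3 and 4). Mice labelled KO carried 2 deleted alleles and are called 1b-/- (n = 2, both female). All animals were on a C57BL/6N background, and the mutants came from 1 line in which Cas9 removed the non-coding 1b interval of *Scn1a* in every cell of the animal. All WT animals were male and all 1b-/- animals were female, so sex and genotype cannot be told apart in that comparison. Hippocampus is the tissue in the sample labels and forebrain is the P7 tissue in the study's methods.

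An alpha subunit is the large protein that forms the pore of a sodium channel and carries its voltage sensors and its inactivation gate. Neurons use these channels to start and conduct action potentials. The brain is known to change its alpha subunits as it matures, with *Scn3a* being an early subunit, *Scn2a1* the main subunit of young axons, and *Scn8a* and *Scn1a* gaining ground later. *Scn1a* encodes NaV1.1, on which many inhibitory interneurons depend, and the loss of a copy of the human gene is the usual cause of Dravet syndrome. The question posed here was what share of the alpha subunit messenger RNA each gene supplied at P7, and whether any other member rose where *Scn1a* was lost.

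Genome positions were taken from mm9, the build to which the reads were aligned. Of the 6 genes, 5 lie in a single cluster on chromosome 2. *Scn3a* (minus strand) occupies chr2:65295175-65405684 and *Scn2a1* (plus strand) occupies chr2:65458914-65605504. *Scn1a* (minus strand) follows at chr2:66108838-66278897, then *Scn9a* (minus strand) at chr2:66318137-66473009 and *Scn7a* (minus strand) at chr2:66511482-66622971. *Scn8a* lies apart, on the plus strand at chr15:100763860-100876360. The deletion therefore sits in the same cluster as 4 of the 5 other members.

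The members are close copies of each other, which bears on how well short reads could separate them. Coding sequences were compared over their aligned bases, with gaps left out. There *Scn1a* shared 83.0% of bases with *Scn2a1*, 81.9% with *Scn3a*, 77.8% with *Scn9a*, 75.2% with *Scn8a* and 66.7% with *Scn7a*. The aligned bases numbered 5970 with *Scn2a1* and 5006 with *Scn7a*. Reads were 50 bases long, so identical stretches of 50 bases were counted within exons. *Scn1a* shared 291 such windows with *Scn2a1*, 287 with *Scn3a* and 139 with *Scn9a*, whereas *Scn8a* and *Scn7a* shared 0 with any member. Windows that occurred once made up 95.4% of the *Scn1a* exon windows, 90.2% for *Scn2a1*, 92.7% for *Scn3a* and 94.4% for *Scn9a*, and 100% for both *Scn8a* and *Scn7a*. The exons of *Scn9a* also overlap those of the antisense gene *Gm13629*, and whether the counting used strand was not stated.

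**Figure D1:**
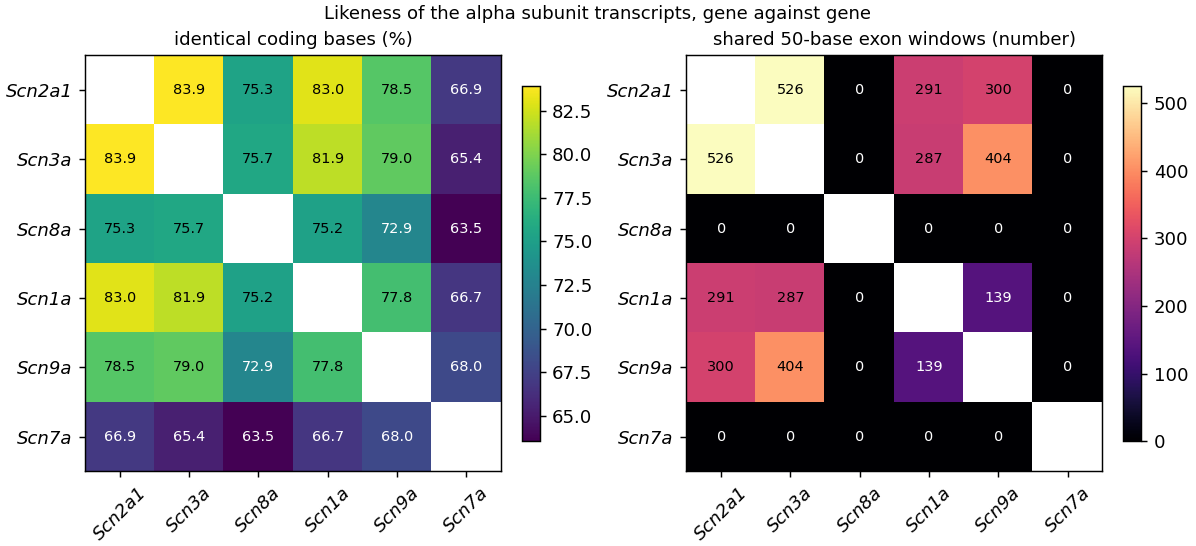
Likeness of the alpha subunit transcripts, gene against gene. The left panel gives the percent of aligned coding bases that were identical. The right panel gives the number of identical 50-base windows within exons, and both use colour and number. *Scn2a1* and *Scn3a* are the closest pair at 83.9% and 526 windows, and *Scn8a* and *Scn7a* share 0 windows with any other member.

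The deletion removed an alternative start of *Scn1a*, 1b, and not its protein-coding exons. The more upstream start, 1a, remained in all genotypes. The 150 bases before it, at chr2:66278898-66279047 of mm9, are printed on the minus strand, 5′ to 3′, to show the start that was left, with CG dinucleotides in capitals.
1a: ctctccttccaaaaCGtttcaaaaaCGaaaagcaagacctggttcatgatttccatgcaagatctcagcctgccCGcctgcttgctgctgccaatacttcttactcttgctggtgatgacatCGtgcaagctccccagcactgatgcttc

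This window held 4 CG dinucleotides at 49.3% GC. Counts were deposited per gene, so transcripts from the 1a and 1b starts cannot be told apart in the values that follow.

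The libraries held between 2947770 and 20878772 counts, so the level equal to 3 counts, which 0 counts still allow, ran from 0.145 CPM to 1.002 CPM in the shallowest library, 1b+/- replicate 4. Such limits cover counting error only. Summed pan-neuronal markers were at 6795 to 6833 CPM in WT, 5600 to 6725 CPM in 1b+/- and 6313 to 6949 CPM in 1b-/- libraries, so all 4 1b+/- libraries lay below WT and the 1b-/- libraries spanned it. Neocortical markers (668 to 1245 CPM, summed over 5 genes) and striatal markers (117 to 207 CPM over 6 genes) were present in all 8 libraries. So was the hippocampal list (1001 to 2164 CPM over 8 genes). Most of that sum came from *Neurod6*, with a mean of 1568 CPM, while *Lct*, *Spink8* and *Iyd* averaged below 1 CPM. The library of 1b+/- replicate 1 stood apart, with 33.5 CPM for the summed midbrain and hindbrain list against 2.67 to 12.4 CPM elsewhere, and 1643 CPM for the vascular and meningeal list against 447 to 867 CPM. Choroid plexus markers varied more widely and set other libraries apart, with a sum of 956 to 1018 CPM in WT, 198, 17.1, 179 and 969 CPM in 1b+/- replicates 1 to 4, and 420 and 837 CPM in 1b-/- libraries. The part of that difference in the comparisons with WT was not tested. For *Scn7a* and *Scn9a*, which were highest in 1b+/- replicate 1, fitted comparisons with 1b+/- animals are given with and without that library. Correlations are given over all 8 libraries only. In bulk tissue, fewer cells of a type and less RNA per cell cannot be told apart.

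To compare levels between genes, counts were divided by exon length and scaled library size, giving CPM per kilobase of exon (RPKM). *Scn2a1* was the most abundant member at 37.2 ± 2.51 RPKM in WT (SD, n = 2). *Scn3a* followed at 15.4 ± 0.823 RPKM, *Scn8a* at 5.81 ± 0.0485, *Scn1a* at 3.86 ± 0.299 and *Scn9a* at 2.36 ± 0.143 RPKM. *Scn7a*, which encodes the sodium-sensing channel NaX and is not regarded as a classical voltage-gated channel, was nearly absent at 0.104 ± 0.0286 RPKM, which rested on 11 and 4 counts.

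The order *Scn2a1*, *Scn3a*, *Scn8a*, *Scn9a*, *Scn7a* held in 8 of 8 libraries and with each of the 5 ways of counting length that were tried. The place of *Scn1a* in that order differed with genotype. *Scn1a* ranked above *Scn9a* in 2 of 2 WT libraries, in 0 of 4 1b+/- libraries and in 0 of 2 1b-/- libraries. It ranked below *Scn8a* and above *Scn7a* in all 8. In WT the RPKM ranges of *Scn1a* (3.65 to 4.07) and *Scn9a* (2.26 to 2.46) did not overlap, whereas in 1b+/- libraries those of *Scn1a* (1.42 to 2.41) and *Scn9a* (1.90 to 4.68) did.

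**Figure D2:**
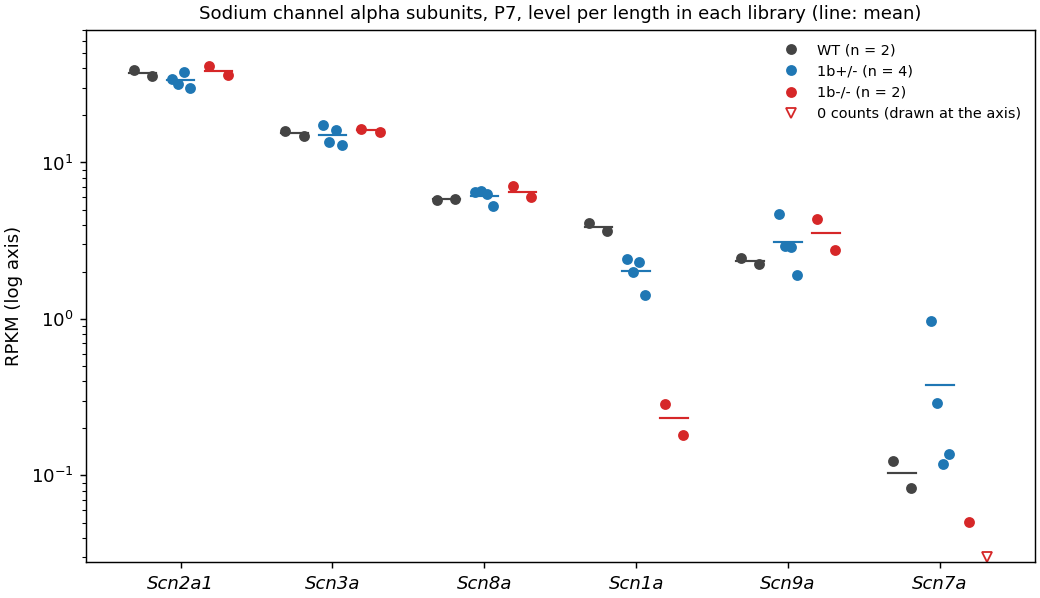
Level per length (RPKM, log axis) of each alpha subunit in each library, with points for single animals and lines for group means. *Scn2a1* lies highest in all 3 genotypes, *Scn1a* falls from 3.86 RPKM in WT to 0.234 in 1b-/-, and 1b-/- replicate 2 had 0 counts for *Scn7a* (open triangle, drawn at the axis).

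As a share of the summed RPKM of the 6 genes, *Scn1a* made up 6.05% and 5.88% in the WT libraries. It made up 3.64%, 3.52%, 3.49% and 2.75% in 1b+/- replicates 1 to 4, and 0.415% and 0.298% in the 1b-/- libraries. The 3 genotypes did not overlap in this share, and the lowest of the 1b+/- values came from the shallowest library, where it rested on 47 counts.

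*Scn2a1* supplied 57.9% and 57.1% of the sum in WT, 51.6%, 55.6%, 57.9% and 57.9% in 1b+/-, and 59.3% and 59.5% in 1b-/- libraries. *Scn3a* supplied 23.7% and 23.8% in WT, 23.6% to 26.4% in 1b+/-, and 23.7% and 25.8% in 1b-/- libraries. These subunits of the young brain thus made up 81.2% ± 0.436 of the sum in WT (SD, n = 2), 80.7% ± 2.41 in 1b+/- (n = 4) and 84.2% ± 1.60 in 1b-/- (n = 2).

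*Scn8a* supplied 8.57% and 9.42% in WT, 9.55% to 11.6% in 1b+/-, and 10.1% and 9.85% in 1b-/- libraries. *Scn9a* supplied 3.65% and 3.64% in WT, 7.08%, 5.14%, 4.38% and 3.69% in 1b+/-, and 6.31% and 4.54% in 1b-/- libraries. The shares of both were lowest in WT. Shares add up to a fixed total, so a lower share of 1 gene raises the others, and the levels themselves were compared next.

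**Figure D3:**
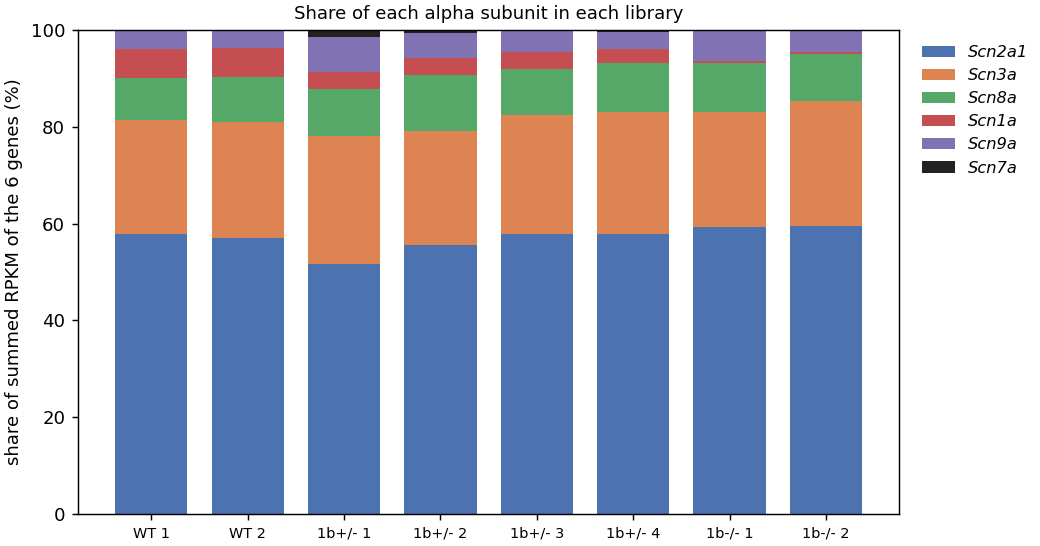
Share of each alpha subunit in the summed RPKM of the 6 genes (%), 1 stacked bar for each library. *Scn2a1* and *Scn3a* fill most of every bar, and the *Scn1a* band narrows from 6.05% and 5.88% in WT to 0.415% and 0.298% in 1b-/-.

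*Scn1a* was measured at 45.1 and 40.5 CPM in WT, at 26.7, 22.2, 25.4 and 15.7 CPM in 1b+/- and at 3.18 and 2.003 CPM in 1b-/- libraries. The groups did not overlap, and the 1b-/- libraries still held 26 and 8 *Scn1a* counts. The mean was 52.6% of WT in 1b+/- and 6.06% in 1b-/- animals.

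By the edgeR quasi-likelihood test with Benjamini-Hochberg adjustment over all 15588 genes, *Scn1a* fell in 1b-/- against WT, with a log2 difference of -3.97 (SE 0.32, adjusted p = 5.96e-04). It also fell against 1b+/-, with a log2 difference of -3.07 (SE 0.30, adjusted p = 0.00491), but this call was lost when either 1b-/- library was left out. In 1b+/- against WT the log2 difference was -0.90 (SE 0.21, 95% interval -1.35 to -0.45), and the adjusted p of 0.381 did not pass the threshold of 0.05 (unadjusted p = 0.00103). The slope per deleted allele was -1.72 (SE 0.27, adjusted p = 0.0672), where 0.0385% of all genes passed. A slope assumes equal log2 steps per allele, whereas the fitted steps were -0.90 and -3.07.

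*Scn1a* was thus the 1 member of 6 called in 1b-/- against WT, where 0.00642% of all genes tested were called, and the 1 member called in 1b-/- against 1b+/-, where 0.00642% were called. In 1b+/- against WT 0 of 6 members were called against 0.0834% of all genes, and 1 member had an unadjusted p under 0.05 against 4.34% of all genes. Scaled to 1000 CPM of summed pan-neuronal markers, *Scn1a* was 5.92 to 6.64 in WT, 2.39 to 4.44 in 1b+/- and 0.288 to 0.504 in 1b-/- libraries, again without overlap.

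The counts left in 1b-/- libraries are few enough for reads of close copies to matter. If reads from the windows that *Scn1a* shares with *Scn2a1*, *Scn3a* and *Scn9a* had also been counted for *Scn1a*, even coverage of those genes would have placed 163 counts in 1b-/- replicate 1 and 71.1 in replicate 2. The observed 26 and 8 counts were below both values. Which part of the remaining counts came from *Scn1a* itself was not tested.

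The other members were then examined for a rise. *Scn2a1*, which encodes NaV1.2 of the axon initial segment of young excitatory neurons, was at 361 and 328 CPM in WT, at 316, 293, 352 and 276 CPM in 1b+/- and at 381 and 335 CPM in 1b-/- libraries. The groups overlapped in every comparison. Per 1000 CPM of summed pan-neuronal markers *Scn2a1* was 48.1 to 53.2 in WT, 42.0 to 52.6 in 1b+/- and 48.2 to 60.3 in 1b-/- libraries. The log2 difference of 1b-/- against WT was 0.05 (SE 0.16, 95% interval -0.30 to 0.41), which covers anything between a fall by 18.7% and a rise of 32.4%. The upper end was a rise of 44.4% with sex as a covariate, 50.8% without 1b-/- replicate 2 and 51.3% without WT replicate 1.

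*Scn3a*, which encodes NaV1.3 and is typical of the developing brain, was at 201 and 186 CPM in WT, at 220, 169, 203 and 163 CPM in 1b+/- and at 207 and 197 CPM in 1b-/- libraries. All 3 groups overlapped. Per 1000 pan-neuronal CPM *Scn3a* was 29.5 and 27.2 in WT, 36.6, 30.2, 30.2 and 24.8 in 1b+/- and 32.75 and 28.35 in 1b-/- libraries. Its log2 difference of 1b-/- against WT was 0.06 (SE 0.17), and the interval reached a rise of 35.5%. That upper end was 63.2% with sex as a covariate and 54.0% without WT replicate 1.

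*Scn8a*, which encodes NaV1.6 of nodes of Ranvier and mature axon initial segments, was at 70.1 and 70.9 CPM in WT, at 78.4, 79.9, 76.3 and 64.1 CPM in 1b+/- and at 85.3 and 72.6 CPM in 1b-/- libraries. Both 1b-/- libraries lay above both WT libraries, while the 1b+/- libraries spanned the WT values. Per 1000 pan-neuronal CPM *Scn8a* was 10.32 and 10.38 in WT, 13.05, 14.27, 11.34 and 9.75 in 1b+/- and 13.52 and 10.45 in 1b-/- libraries. The log2 difference of 1b-/- against WT was 0.17 (SE 0.17, 95% interval -0.20 to 0.53), within the spread between animals. The interval reached a rise of 44.3%. Leaving out 1b-/- replicate 1 gave 0.04, and leaving out replicate 2 gave 0.27 with an upper end of 65.0%. With sex as a covariate the difference was 0.33 and the upper end 81.4%.

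*Scn9a*, which encodes NaV1.7 and is best known from sensory and sympathetic neurons, was at 26.4 and 24.2 CPM in WT, at 50.2, 31.4, 30.9 and 20.4 CPM in 1b+/- and at 46.9 and 29.5 CPM in 1b-/- libraries. Both 1b-/- libraries were above both WT libraries, and the 1b+/- libraries ranged from below to above WT. The log2 difference of 1b-/- against WT was 0.61 (SE 0.34, 95% interval -0.14 to 1.35, unadjusted p = 0.102, edgeR adjusted p = 1), so a rise of up to 155.7% lay within the interval.

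The size of the *Scn9a* difference changed with single libraries and with a term for sex. It was 0.22 without 1b-/- replicate 1 and 0.89 without replicate 2. Without 1b+/- replicate 1 it was 0.61 (SE 0.27, interval 0.025 to 1.19, edgeR unadjusted p = 0.0424). With WT and 1b-/- libraries alone in the fit it was 0.62 (SE 0.24, interval 0.093 to 1.14, edgeR unadjusted p = 0.0246). Both intervals held only rises, as did those with no filter and with sex as a covariate, but *Scn9a* was not called in these fits. Fits that left 1 WT or 1b-/- animal are given for *Scn9a* by size alone. The interval also held falls with filterByExpr, the other scalings, the likelihood ratio test, DESeq2 or another 1b+/- library left out. With sex as a covariate the difference was 1.24 (SE 0.43, interval 0.30 to 2.18, unadjusted p = 0.0146, edgeR adjusted p = 0.9999). The interval then reached a rise of 354.3%. Any such sex term rests on the 1b+/- animals, the only group with both sexes, whose males include replicate 1. Their female against male *Scn9a* difference was -0.63, and -0.24 without that library. Between 1b+/- and WT the log2 difference of 0.42 (SE 0.30) became 0.15 without 1b+/- replicate 1. It was 0.70 (SE 0.27, interval 0.11 to 1.29, not called) among males alone, who include that library. Between 1b-/- and 1b+/- the *Scn9a* log2 difference was 0.19 (SE 0.29), and 0.46 (SE 0.24) without 1b+/- replicate 1.

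Groups that did not overlap were common at this size. In 1b-/- against WT both *Scn8a* and *Scn9a* were higher without overlap, which was the case for 11.6% of all genes tested, and *Scn1a* and *Scn7a* were lower without overlap, which was the case for 12%. The *Scn7a* order rests on 3 and 0 counts, at the floor, in the 1b-/- libraries here and against 1b+/-. Heterozygous animals had *Scn1a* alone lower than WT without overlap, as were 5.93% of all genes, and 0 members were higher against 6.40%. Against 1b+/-, the 1b-/- animals had *Scn1a* and *Scn7a* lower without overlap, as were 3.98% of all genes, and 0 members were higher against 3.41%.

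**Figure D4:**
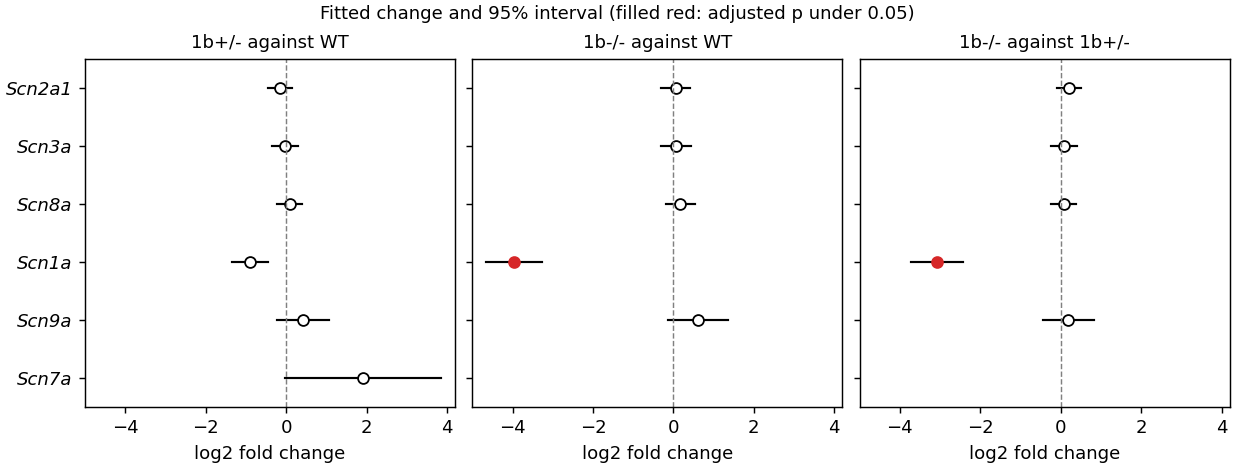
Fitted log2 fold change of each alpha subunit with its 95% interval in the 3 comparisons, filled red where the adjusted p was under 0.05. *Scn1a* is called in both comparisons of 1b-/- animals, at -3.97 and -3.07, and the intervals of *Scn2a1*, *Scn3a*, *Scn8a* and *Scn9a* include 0 in all 3 panels. *Scn7a* is drawn only for 1b+/- against WT, because its 1b-/- libraries held 3 and 0 counts.

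The 5 other members had a median log2 difference of 0.09 in 1b+/- against WT, with 3 of 5 above 0, where the median over all genes was 0.01 and 52.1% were above 0. In that comparison *Scn2a1* differed by -0.15 (SE 0.14), *Scn3a* by -0.03 (SE 0.15) and *Scn8a* by 0.09 (SE 0.14). The median of the 5 was 0.06 in 1b-/- against WT, with 4 of 5 above 0, where that of all genes was -0.01 and 48.9% were above 0. These comparisons share the WT libraries. Between 1b-/- and 1b+/- the median was 0.09, with 4 of 5 above 0, where 49% of all genes were. *Scn2a1* differed there by 0.21 (SE 0.14), *Scn3a* by 0.09 (SE 0.15) and *Scn8a* by 0.08 (SE 0.14). The member below 0 in both comparisons of 1b-/- animals was *Scn7a*. Its 1b-/- libraries held 3 and 0 counts, so both medians rest in part on a gene at the floor.

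The loss of *Scn1a* was small beside the pool of the other members. The summed RPKM of all 6 genes was 67.4 and 62.1 in WT, 66.1, 56.9, 65.8 and 51.5 in 1b+/- and 69.3 and 60.7 in 1b-/- libraries. The 3 genotypes overlapped. Group means were 64.7 ± 3.75 in WT (SD, n = 2), 60.1 ± 7.13 in 1b+/- (n = 4) and 65.0 ± 6.05 in 1b-/- (n = 2).

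The fall of *Scn1a* from WT to 1b-/- equalled 5.96% of what the other 5 genes supplied in WT, and the fall to 1b+/- equalled 3.01%. The other 5 genes summed to 60.9 ± 3.45 RPKM in WT, 58.1 ± 6.70 in 1b+/- and 64.8 ± 5.98 in 1b-/- animals. In 1b-/- animals the mean of that sum was higher than in WT by 3.91 RPKM, beside the 3.63 RPKM by which *Scn1a* was lower. This difference was smaller than the SD within the 1b-/- group, and the sum in 1b+/- animals was lower than in WT. It rested on 1b-/- replicate 1, since the difference was -0.32 RPKM without that library and 8.13 RPKM without replicate 2. A rise of the size of the *Scn1a* loss was thus not detectable against the spread between these animals.

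*Scn7a* was the member with the widest spread. It was at 0.910 and 0.613 CPM in WT, at 7.13, 2.12, 0.872 and 1.002 CPM in 1b+/- and at 0.367 and 0 CPM in 1b-/- libraries. These values rested on 11 and 4 counts in WT, on 108, 21, 18 and 3 in 1b+/- and on 3 and 0 in 1b-/-. The 1b-/- libraries were at or under the floor of 3 counts, so no fold change is read from them. Fitted values of 1b-/- animals are listed only with the processing alternatives, although they enter the medians over the other members. *Scn7a* was not called in any comparison, and its lowest p between genotypes was that of 1b-/- against 1b+/- (unadjusted p = 0.0118, edgeR adjusted p = 1). The unadjusted p was 0.0298 without 1b+/- replicate 1 and 0.116 among females alone, with edgeR adjusted p-values of 1.

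Between 1b+/- and WT the *Scn7a* log2 difference was 1.90 (SE 0.89, unadjusted p = 0.0535, edgeR adjusted p = 0.9999). Without 1b+/- replicate 1 it was 0.78 (SE 0.75). The 1b+/- males were above the WT values and the 1b+/- females were at 0.872 and 1.002 CPM, and the log2 difference of female against male 1b+/- animals was -2.36 (SE 0.70, unadjusted p = 0.00649, edgeR adjusted p = 0.9999). For *Scn9a* that difference was -0.63 (SE 0.30, 95% interval -1.30 to 0.03, unadjusted p = 0.0589). Without 1b+/- replicate 1 these differences were -1.22 (SE 0.81) for *Scn7a* and -0.24 (SE 0.31) for *Scn9a*, and the remaining male, at 31.4 CPM for *Scn9a*, was close to female replicate 3 at 30.9 CPM. In this comparison 0 of 6 members were called against 0.0321% of all genes, and 1 had an unadjusted p under 0.05 against 2.66%. The 4 other members differed by between -0.20 and 0.05, within the spread between animals.

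The library with the highest *Scn7a* and *Scn9a* levels, 1b+/- replicate 1, was the one that stood apart in its markers. Over all genes tested, 15.3% were highest in that library. Of the 10 genes of the midbrain and hindbrain list, 5 were highest there, led by *En2* at 15.6 CPM against 0 to 2.53 elsewhere and *En1* at 10.3 CPM against 0 to 1.52. Of the 10 genes of the sensory ganglia list, 8 were highest there, among them the sensory alpha subunit *Scn10a* at 4.82 CPM against 0.334 to 1.52 and *Prph* at 12.3 CPM against 0.533 to 1.75. That list summed to 38.0 to 57.3 CPM in WT, 31.7 to 89.0 in 1b+/- and 54.1 to 57.2 in 1b-/- libraries, and *Isl1* was its largest contributor in each library. None of its genes was at 0 in all 8 libraries.

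The midbrain and hindbrain list summed to 4.44 to 7.36 CPM in WT, 2.67 to 33.5 in 1b+/- and 3.00 to 6.24 in 1b-/- libraries. The second highest sum, 12.4 CPM in 1b+/- replicate 2, came with the second highest *Scn7a* level. The sensory ganglia sum of that library, 39.1 CPM, lay within the WT range. The vascular and meningeal list summed to 447 to 651 CPM in WT, 632 to 1643 in 1b+/- and 509 to 787 in 1b-/- libraries, and 4 of its 8 genes were highest in 1b+/- replicate 1. Schwann cells are another known site of *Scn7a* expression, and their markers summed to 2.76 to 3.06 CPM in WT, 4.34 to 7.88 in 1b+/- and 3.50 to 4.53 in 1b-/- libraries. The highest of these sums was that of 1b+/- replicate 2 (7.88 CPM), above replicate 1 (6.34 CPM). The part of these markers in the *Scn7a* and *Scn9a* values was not tested. The *Scn9a* level of 1b-/- replicate 1 (46.9 CPM) was nearly as high while its midbrain and hindbrain sum (6.24 CPM) lay within the WT range, and its vascular and meningeal sum (787 CPM) and Schwann cell sum (4.53 CPM) lay above it.

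**Figure D5:**
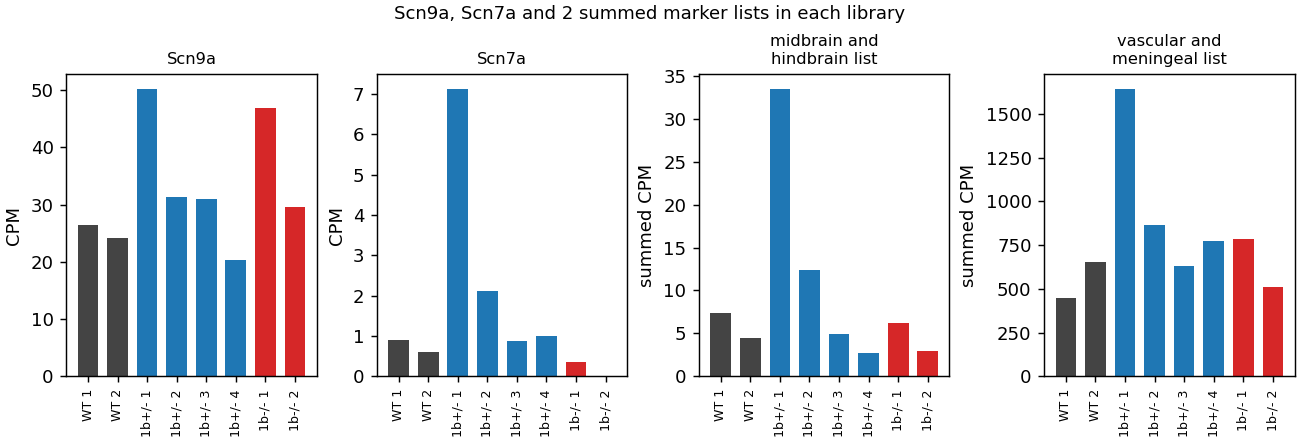
*Scn9a* and *Scn7a* (CPM) beside the summed CPM of the midbrain and hindbrain list and of the vascular and meningeal list, 1 bar for each library, grey for WT, blue for 1b+/- and red for 1b-/-. 1b+/- replicate 1 is highest in all 4 panels, at 50.2, 7.13, 33.5 and 1643 CPM, while 1b-/- replicate 1 is high for *Scn9a* at 46.9 CPM and within the range of the others in the remaining panels.

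Other sodium channel genes were examined as a list of 18, all of which were tested. None was called by edgeR in any of the 3 comparisons, and 1, 0 and 0 had an unadjusted p under 0.05 for heterozygous against WT, homozygous against WT and homozygous against heterozygous animals, where 4.34%, 1.64% and 1.23% of all genes did. In the same order the median log2 difference of the list was -0.10, -0.06 and 0.07, with 6, 5 and 12 of 18 genes above 0. The alpha subunits of skeletal muscle (*Scn4a*) and sensory neurons (*Scn10a* and *Scn11a*) were rare here, summing to 1.33 to 7.19 CPM in a library.

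Among the 4 beta subunits, which modify the gating and the membrane placement of alpha subunits, *Scn2b* had a log2 difference of 0.37 (SE 0.26) in 1b-/- against WT. The estimate for *Scn4b* was larger, at 1.45 (SE 0.92), with a mean of only 0.637 CPM over the libraries. The beta subunits summed to 284 to 320 CPM in WT, 210 to 299 in 1b+/- and 253 to 348 in 1b-/- libraries, so the groups overlapped. Among the 11 partners and regulators, *Sptbn4*, a spectrin of the axon initial segment, differed by 0.32 (SE 0.25). *Fgf13*, a cytoplasmic partner of sodium channels, differed by -0.25 (SE 0.21), and *Nedd4l*, a ubiquitin ligase that removes channels from the membrane, by -0.24 (SE 0.20). Each of these differences had an edgeR adjusted p of 1.

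Across the 8 libraries the members varied together to different degrees, which is given as a description over samples that share genotype and depth differences. On the log2 CPM scale Pearson r was 0.87 between *Scn8a* and *Scn9a*, 0.74 between *Scn2a1* and *Scn3a* and 0.73 between *Scn3a* and *Scn9a*. *Scn1a* had an r between -0.29 and -0.12 with *Scn2a1*, *Scn3a*, *Scn8a* and *Scn9a*. *Scn7a* was left out because its mean was below 10 CPM.

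The genes most like each member were sought by the same measure among 9608 genes with a mean of at least 10 CPM. For *Scn1a* they were *Psma6* (r = 0.93), *Psmg2* (0.92) and *Dpm1* (0.92), none of which spanned a range as wide as that of *Scn1a*, since *Psma6* ran from 51.3 to 66.4 CPM. For *Scn2a1* they were *Mtif3* (0.97), *D5Ertd579e* (0.97) and *Zfp78* (0.96), and for *Scn3a* they were *Zxdc* (0.97), *Cntnap5b* (0.96) and *Habp4* (0.96). For *Scn8a* they were *Zw10* (0.94), *Abcc5* (0.93) and *Wsb1* (0.93), and for *Scn9a* they were *Unc80* (0.93), which encodes a component of the sodium leak channel complex, *Ccnl2* (0.93) and *Nhsl2* (0.92). No member was among the 3 genes most like another member.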

How the data were processed

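Per the labels and the study's methods, poly(A) RNA of 8 P7 mice was made into stranded libraries, which were read from a single end for 50 bases, aligned by the authors to mm9 with STAR 2.7.2 and counted per gene with featureCounts. The deposited values are raw counts, not normalized. The annotation release, strand setting and rule for reads with several matches were not given in the sources used here. Reads that match several alpha subunits may have been dropped or assigned, which affects close copies most.

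Counts were tested in R 4.3.3 with the edgeR 4.0.16 quasi-likelihood test, TMM scaling, genotype as the only factor and all 8 libraries in the same fit. Genes needed 1 CPM in 1 library, and p-values were adjusted over all 15588 genes by the Benjamini-Hochberg method. Replicates were separate animals, numbered by deposit order. Intervals are 95% and were taken from the SE and the degrees of freedom of the fit. RPKM used the union of exons in GENCODE M1 of mm9, from which all positions and sequences were read.

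Shares were recomputed with 4 other lengths. Alternatives to the test were filterByExpr, no filter, RLE or upper quartile scaling, the likelihood ratio test, DESeq2 1.42.0, a term for sex, fits restricted to the groups compared or to 1 sex, and omission of each library. For female against male animals the omissions were added after seeing the data. The scripts were tested on simulated data. Named genes were the members, up to 4 of 18 listed sodium channel genes by size of the 1b-/- against WT difference among those with a mean of at least 10 CPM, and the 3 genes most like each member. Genes of marker lists named beside a result, *Scn4b* and *Gm13629* were chosen after their values or positions were seen. The members, the 15 marker lists and the 18 genes were chosen with earlier results of these data known. All 8 columns of the table were used. Another listed gene and several sequences are not reported here.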

Additional observations from a re-analysis of the deposited data

Results flagged for a closer look

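The share of *Scn1a* among the 6 alpha subunits in the 1b+/- group was singled out because 1 of its 4 animals lay apart from the rest. Replicate 4 was at 2.75% and the others at 3.49% to 3.64%, so the gap to the nearest animal was 0.8334 of the whole range. That library was the shallowest, with 2947770 counts in all and 47 for *Scn1a*. Without it the mean share in 1b+/- was 3.55%. Of 13 measures examined in this way 1 was singled out, where chance would give 0.65.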

How the results depend on the processing

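No paired analysis was possible because the replicate numbers follow deposit order and tie no animals together. The call of *Scn1a* in 1b-/- against WT held under every alternative run (log2 difference -3.98 to -3.77 over other filters, scalings, tests and sample sets, and -4.41 to -3.75 when 1 library was left out), so 1 member was called throughout. Against 1b+/- it held except when either 1b-/- library was omitted, which leaves 1 animal in that group, assumed to vary like the others (-3.51 without replicate 1 and -2.85 without replicate 2, the range over all omissions, with 0 to 1 members called). In 1b+/- against WT *Scn1a* passed under the likelihood ratio test alone (-0.90, edgeR adjusted p = 0.0218, 1 member called), where the adjusted p ran from 0.0218 to 0.647 over the alternatives other than single omissions. Its slope per deleted allele passed with no filter (-1.73), the likelihood ratio test (-1.88) and DESeq2 (-1.88).

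Some differences changed sign. That of *Scn3a* in 1b+/- against WT was -0.03 (SE 0.15) in the main fit. It was 0.00045 with upper quartile scaling, 0.011 with sex as a covariate, 0.017 among males and -0.11 to 0.031 when 1 library was left out. Omissions gave *Scn2a1* -0.044 to 0.14 in 1b-/- against WT and -0.048 to 0.090 for the slope. In 1b-/- against 1b+/- the main fit gave *Scn8a* 0.08 (SE 0.14) and *Scn9a* 0.19 (SE 0.29). Omissions there gave *Scn8a* -0.047 to 0.19 and *Scn9a* -0.20 to 0.47. For *Scn7a* in 1b-/- against WT the main fit gave -1.67 (SE 1.47), and sex as a covariate gave 0.69. Its slope was -0.23 (SE 0.87) in the main fit, 1.14 with sex as a covariate and -0.97 to 0.49 over omissions. For female against male 1b+/- animals, omission of a 1b+/- library, added after seeing the data, gave *Scn1a* -0.64 to 0.055, *Scn2a1* -0.14 to 0.21 and *Scn3a* -0.26 to 0.12, and *Scn7a* -2.97 to -1.22 and *Scn9a* -1.01 to -0.24. The fitted *Scn7a* values of 1b-/- animals rest on 3 counts at most in 1b-/- libraries.

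Shares in WT moved by more than their SD with length. For *Scn1a* the share was 6.95% by longest transcript, 6.40% by coding length, 5.69% by unique windows and 6.31% by counts alone, and in 1b+/- it was 3.91% by longest transcript. In the same order *Scn2a1* was 53.1%, 50.9%, 59.4% and 50.9%, *Scn3a* 27.5%, 28.5%, 23.1% and 28.5%, and *Scn9a* 3.50%, 3.72%, 3.55% and 3.73%. *Scn8a* was 10.4% by coding length, 8.15% by unique windows and 10.4% by counts, and *Scn7a* 0.112% by counts.

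The number of genes called over the whole table varied more. In 1b+/- against WT it was 13, against 24 with DESeq2, 64 with the likelihood ratio test, 57 with no filter, 0 with sex as a covariate or among males, and 0 to 30 over omissions (0 without WT replicate 1 or 1b+/- replicate 3, 4 without 1b+/- replicate 4, 7 without 1b+/- replicate 1, 30 without WT replicate 2). In 1b-/- against WT it was 1, against 13, 23 and 33 in the same order, 15 with only those groups in the fit, 16 without WT replicate 2 and 2 without 1b+/- replicate 1. For the slope it was 6, against 3, 31 and 24, with 0 under sex as a covariate, 3 with upper quartile scaling, and 0 to 13 over omissions.

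Depth limited *Scn7a* most in WT replicate 2, 1b+/- replicate 4 and the 1b-/- libraries, which held 0 to 4 counts, and the 2 animals of each of the WT and 1b-/- groups limited the rest.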
